A study of Mus musculus with 28 samples.

Results

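*Drd1*, *Tac1*, *Pdyn*, *Chrm4* and *Isl1* are 5 genes that mark the direct pathway spiny projection neurons of the striatum, and they were chosen by name out of 29878 genes listed in the count tables. Each symbol matched 1 Ensembl gene, and all 5 passed the filter on low counts. They were followed in 28 RNA-seq libraries from dorsal striatum, ventral striatum, hypothalamus and motor cortex of adult male mice, 2 to 3 months old, on a C57Bl/6 background. The mice carried either 2 intact copies of *Hdc* (wild type, WT), 1 intact copy (heterozygous, Het) or none (*Hdc*-KO, KO), and no drug was given. *Hdc* encodes histidine decarboxylase, the enzyme that makes histamine, and the knockout is constitutive, so every cell of the animal carries it throughout life.

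Spiny projection neurons make up most of the striatum and fall into 2 populations. Those of the direct pathway send axons to the internal pallidum and the substantia nigra, express the D1 dopamine receptor (*Drd1*) and the M4 muscarinic receptor (*Chrm4*), and release substance P and dynorphin, which are cut from the precursors encoded by *Tac1* and *Pdyn*. *Isl1* encodes a LIM-homeodomain transcription factor needed for their development. D1 receptors raise cAMP through the G protein subunit encoded by *Gnal* and the adenylyl cyclase encoded by *Adcy5*, whereas M4 receptors lower it. Indirect pathway neurons carry D2 and A2a receptors (*Drd2*, *Adora2a*) and enkephalin (*Penk*) instead. None of the 5 genes is restricted to these neurons across the brain: cholinergic neurons and hypothalamic neurons use *Isl1*, hypothalamic neurons make both peptides, and cortical neurons express *Chrm4*.

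The dorsal striatum was sampled in 2 WT, 3 Het and 2 KO libraries, the ventral striatum in 3, 3 and 2, the hypothalamus in 3, 3 and 2, and the motor cortex in 1, 2 and 2. Libraries are named here by genotype, region and the number in their names (1 to 3 for WT, 4 to 6 for Het, 7 and 8 for KO). Between 3536802 and 5150280 reads per library were assigned to genes. Levels are given as CPM, the usual scale of counts relative to the library total, here adjusted by TMM factors, and ± marks the SD between libraries. *Hdc* itself had 0 to 6 counts in the WT libraries outside the hypothalamus, 17 to 33 in the Het and 29 to 51 in the KO libraries there, and 79 to 111, 78 to 117 and 54 to 66 counts in the hypothalamus. The counts cover the whole gene, so they do not show which exons were read, and WT, Het and KO below are the genotypes of the labels.

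Several libraries stood apart in genes of other tissues. The mean of 5 cortical excitatory neuron markers was 7.73 to 8.01 log2 CPM in motor cortex, and 0.65 to 2.43 in all other libraries except WT 2 (3.92) and KO 7 (5.47) of the dorsal striatum and KO 8 of the hypothalamus (5.52). Choroid plexus markers averaged 5.78 log2 CPM in KO 8 of the dorsal striatum and at most 2.46 elsewhere. A list of ventral striatum enriched genes was highest among dorsal libraries in Het 4 (3.27, against 2.25 to 2.69). Genes of both spiny neuron types were lowest among ventral libraries in KO 8 (7.11 log2 CPM) and WT 3 (7.28), against 7.75 to 8.04 in the other 6. Hypothalamic peptide genes averaged 3.31 to 4.21 log2 CPM in all hypothalamic libraries and at most -0.03 outside that region.

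All 5 genes lie in GRCm38 as protein-coding genes whose exons overlap those of no other gene. *Drd1* is at chr13:54051183-54055705 and *Isl1* at chr13:116298281-116309689, both on the minus strand. *Tac1* is at chr6:7554879-7565834 on the plus strand, *Pdyn* at chr2:129686565-129699844 on the minus strand and *Chrm4* at chr2:91927249-91928688 on the plus strand. *Hdc* is on chromosome 2 as well, 3.07 Mb from *Pdyn* and 34.66 Mb from *Chrm4*. The annotation used for lengths gives *Chrm4* a single exon of 1440 bases that begins downstream of the RefSeq transcript start, so its level per length rests on that exon alone.

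The 250 bases before the RefSeq transcript start are shown for the D1 receptor gene and for both peptide genes, because *Drd1* and *Tac1* were higher dorsally and *Pdyn* ventrally. The sequences are from RefSeq (GRCm38.p6), on the strand of the gene, and capitals mark TGACG, the core of the cAMP response element, read on either strand (CGTCA on the other).
Drd1, chr13:54055659-54055908, minus strand: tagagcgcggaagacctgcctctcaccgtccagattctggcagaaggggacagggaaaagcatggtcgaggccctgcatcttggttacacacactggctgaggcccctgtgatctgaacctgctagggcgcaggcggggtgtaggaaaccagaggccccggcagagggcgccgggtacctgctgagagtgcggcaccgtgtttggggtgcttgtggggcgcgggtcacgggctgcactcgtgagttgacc
Tac1, chr6:7554811-7555060, plus strand: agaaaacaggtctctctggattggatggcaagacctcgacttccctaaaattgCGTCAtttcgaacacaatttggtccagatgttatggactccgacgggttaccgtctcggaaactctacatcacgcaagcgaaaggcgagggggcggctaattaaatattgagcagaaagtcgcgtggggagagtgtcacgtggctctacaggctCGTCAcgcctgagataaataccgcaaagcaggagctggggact
Pdyn, chr2:129699939-129700188, minus strand: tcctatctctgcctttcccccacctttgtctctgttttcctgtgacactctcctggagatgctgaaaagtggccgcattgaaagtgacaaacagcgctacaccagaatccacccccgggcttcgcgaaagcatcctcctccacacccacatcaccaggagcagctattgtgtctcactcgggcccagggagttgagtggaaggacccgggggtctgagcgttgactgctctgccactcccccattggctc
*Tac1* held TGACG 2 times in this window and *Drd1* and *Pdyn* not at all. *Isl1* also held it 2 times and *Chrm4* had no match. RefSeq lists 2 starts each for *Drd1* and *Pdyn*, and only the start nearest the annotated gene start was read. The *Tac1* start used lies 182 bases inside the annotated gene, so the match 43 bases before it is within that gene. Of 32851 windows of the same length before RefSeq starts, 17.8% held TGACG. The full element, TGACGTCA, was found in none of the 5 windows and in 1.55% of all windows. A match to these letters is a description of the sequence and was not tested for binding.

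*Drd1*, *Chrm4* and *Tac1* were highest in the dorsal striatum, *Pdyn* was highest in the ventral striatum, and *Isl1* had overlapping levels in both striatal regions and the hypothalamus. *Drd1* ranged from 184 to 293 CPM over the 7 dorsal libraries (median 227), from 60.0 to 159 over the 8 ventral libraries (median 109), from 1.38 to 4.77 in hypothalamus (median 2.81) and from 4.83 to 8.17 in motor cortex (median 5.41). No 2 of these 4 ranges overlapped. The order of the means was dorsal striatum (239 ± 35.4 CPM, SD, n = 7), ventral striatum (109 ± 28.3, n = 8), motor cortex (6.15 ± 1.46, n = 5) and hypothalamus (3.01 ± 1.32, n = 8).

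*Chrm4* followed the same order of means with other steps. Its mean fell 2.5-fold from dorsal to ventral striatum (*Drd1* 2.2-fold) and 1.43-fold from ventral striatum to motor cortex (*Drd1* 17.7-fold). From motor cortex to hypothalamus it fell 8.63-fold (*Drd1* 2.04-fold). It ranged from 64.6 to 101 CPM in dorsal striatum (median 78.2), from 21.3 to 37.4 in ventral striatum (median 33.4), from 18.99 to 23.5 in motor cortex (median 22.0) and from 1.72 to 5.37 in hypothalamus (median 2.19). The ventral and cortical ranges overlapped, and the dorsal and hypothalamic ranges stood clear of them. The means were 78.1 ± 11.6 CPM (SD, n = 7), 31.2 ± 5.76 (n = 8), 21.8 ± 1.68 (n = 5) and 2.52 ± 1.17 (n = 8) in that order.

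*Tac1* ranged from 46.7 to 73.5 CPM in dorsal striatum (median 60.7), from 21.5 to 61.0 in ventral striatum (median 33.9), from 8.24 to 16.4 in hypothalamus (median 14.1) and from 1.12 to 2.70 in motor cortex (median 2.16). Dorsal and ventral ranges overlapped through 1 library, KO 7 of the ventral striatum at 61.0 CPM. *Pdyn* ranged from 30.4 to 95.2 CPM in dorsal striatum (median 37.9), from 54.4 to 163 in ventral striatum (median 106), from 15.4 to 35.9 in hypothalamus (median 23.6) and from 13.4 to 17.8 in motor cortex (median 14.4). Its 2 striatal ranges also overlapped, through Het 4 (95.2) and WT 2 (59.6) on the dorsal side and WT 3 (88.5) and KO 8 (54.4) on the ventral side.

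*Isl1* ranged from 12.9 to 15.9 CPM in dorsal striatum (median 14.2), from 9.61 to 14.5 in ventral striatum (median 11.6) and from 6.82 to 19.2 in hypothalamus (median 10.4), and these 3 ranges overlapped. In motor cortex its counts were 2 in WT, 1 and 1 in Het and 1 and 0 in KO. Against a floor of 3 counts per library, at most 0.810 CPM there, the mean *Isl1* level was at least 17.6-fold higher in dorsal striatum, at least 14.5-fold in ventral striatum and at least 13.8-fold in hypothalamus.

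**Figure D1:**
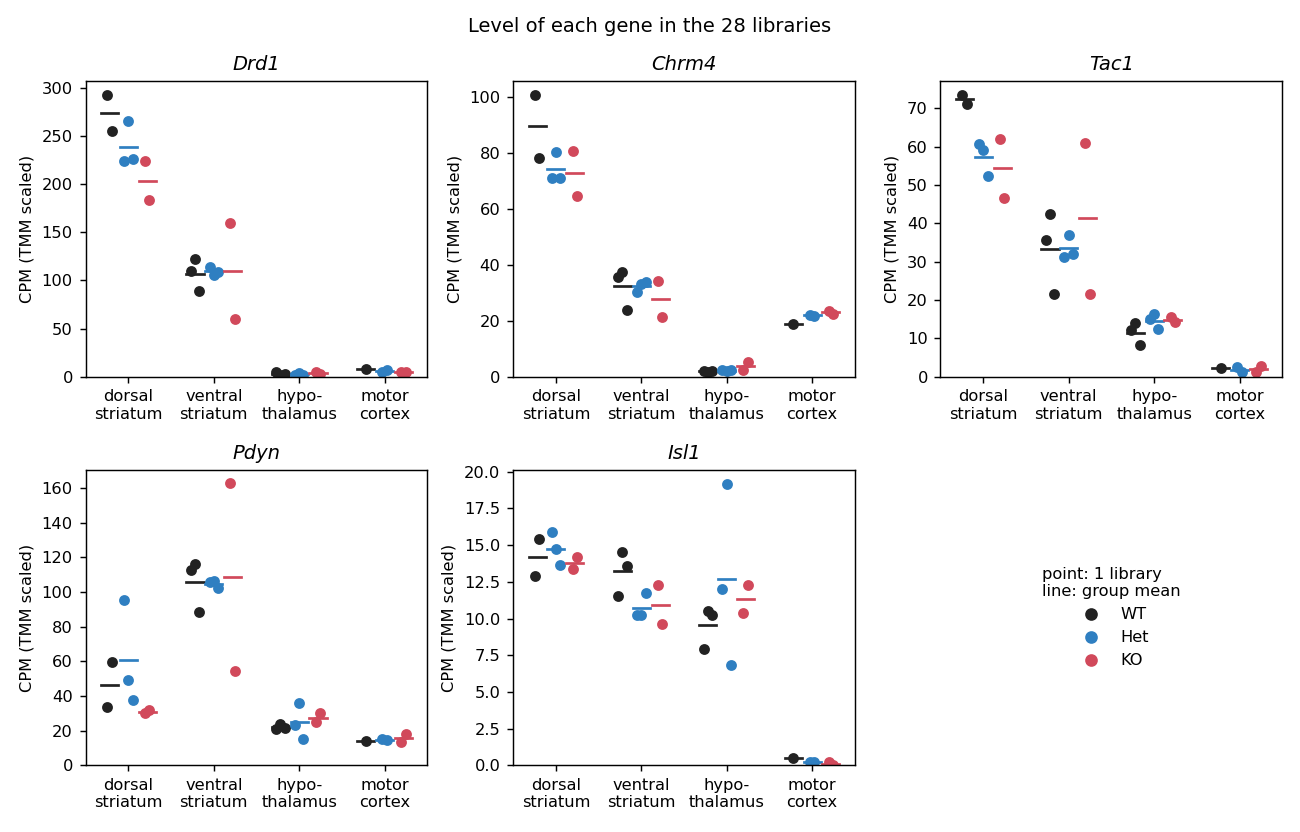
Level of each gene in CPM (TMM scaled, linear axes from 0) by region, with 1 point per library, coloured by genotype, and a line at each group mean. Drd1, Chrm4 and Tac1 were highest in dorsal striatum and Pdyn in ventral striatum, and the 2 KO libraries of the ventral striatum lay far apart for Drd1 (159 and 60.0), Tac1 and Pdyn.

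Between regions, tests were made with edgeR's likelihood ratio test on contrasts of region means over the genotypes, with Benjamini-Hochberg adjustment over 14979 genes. From dorsal to ventral striatum, 4 of the 5 genes changed, where 29.0% of all genes did. *Chrm4* was 2.55-fold higher dorsally (log2 1.35 ± 0.11 SE, edgeR adjusted p = 4.18e-33) and *Drd1* 2.18-fold (log2 1.12 ± 0.15, edgeR adjusted p = 8.43e-13). *Tac1* was 1.70-fold higher dorsally (log2 0.77 ± 0.16, edgeR adjusted p = 1.65e-05). *Pdyn* went the other way and was 2.39-fold higher in ventral striatum (log2 -1.26 ± 0.20, edgeR adjusted p = 4e-09). The *Isl1* difference (log2 0.30, 95% interval -0.01 to 0.61, edgeR adjusted p = 0.157) did not pass.

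The 7 dorsal and ventral libraries that share a number gave the same directions, though the sources do not say what the number stands for. The dorsal level of *Drd1* was 1.40 to 3.06 times the ventral one and that of *Chrm4* 2.09 to 3.04 times, both in 7 of 7 pairs. The ratio was 1.02 to 2.17 for *Tac1* and 0.186 to 0.901 for *Pdyn*, again on 1 side in 7 of 7 pairs, though the ends nearest 1 were within a few percent for *Tac1* (number 7). For *Isl1* it was 1.06 to 1.55. The 4 calls between the striatal regions also stood with 6 of the 7 libraries that stand apart in marker genes left out together (WT 2, Het 4 and KO 7 of dorsal striatum, WT 3 and KO 8 of ventral striatum, KO 8 of hypothalamus; KO 8 of dorsal striatum was kept, since no other KO library would remain there), at log2 0.90 for *Drd1*, 0.42 for *Tac1*, -1.80 for *Pdyn* and 1.203 for *Chrm4*.

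Against the hypothalamus, all 5 genes were higher in dorsal striatum, where 56.1% of all genes changed. *Drd1* was 77.2-fold higher (log2 6.27 ± 0.20 SE), *Chrm4* 30.4-fold (4.93 ± 0.17), *Tac1* 4.48-fold (2.16 ± 0.17) and *Pdyn* 1.80-fold (0.85 ± 0.20). *Isl1* passed narrowly at log2 0.36 ± 0.16 (edgeR adjusted p = 0.0409). Library size alone as the scale moved the median of all genes here from -0.04 to -0.41. The *Isl1* call was lost with DESeq2 (adjusted p = 0.0616), with that scale (log2 -0.01) and in 9 of 15 fits that left out 1 library.

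From ventral striatum to hypothalamus, 4 genes fell: *Drd1* by 5.15 ± 0.19 SE on the log2 scale, *Chrm4* by 3.58 ± 0.18, *Pdyn* by 2.10 ± 0.19 and *Tac1* by 1.40 ± 0.16. *Isl1* differed by log2 0.06 (95% interval -0.24 to 0.36, edgeR adjusted p = 0.79). In this comparison 43.6% of all genes changed.

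All 5 genes were higher in either striatal region than in motor cortex, where 43.4% of all genes changed for the dorsal and 43.7% for the ventral striatum. *Drd1* differed by log2 5.21 ± 0.21 SE (dorsal) and 4.09 ± 0.21 (ventral), and *Tac1* by 4.94 ± 0.30 and 4.17 ± 0.30. *Pdyn* differed by 1.58 ± 0.24 and 2.84 ± 0.23, and *Chrm4* by 1.88 ± 0.14 and 0.53 ± 0.14. Hypothalamus and motor cortex split the list, with 48.2% of all genes changed. *Tac1* (log2 2.78 ± 0.30), *Pdyn* (0.73 ± 0.23) and *Isl1* were higher in hypothalamus, and *Chrm4* (-3.04 ± 0.19) and *Drd1* (-1.06 ± 0.25) in motor cortex.

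Levels of different genes can be set side by side only per length, and were compared as RPKM, that is, the TMM-scaled CPM divided by the exon length in kilobases. In dorsal striatum *Drd1* led (65.8 ± 9.75 RPKM, SD, n = 7), followed by *Chrm4* (54.3 ± 8.05), *Tac1* (17.9 ± 2.80), *Pdyn* (16.7 ± 8.06) and *Isl1* (3.61 ± 0.28). *Drd1* was above *Chrm4* in all 7 libraries, whereas *Tac1* and *Pdyn* did not differ beyond their spread, *Pdyn* being the higher in 1 of 7 (Het 4).

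In ventral striatum *Pdyn* took the first place (36.8 ± 10.5 RPKM, SD, n = 8), ahead of *Drd1* (30.0 ± 7.79), *Chrm4* (21.7 ± 4.0), *Tac1* (10.4 ± 3.72) and *Isl1* (2.96 ± 0.44). The ratio of *Pdyn* to *Drd1* was 1.14 to 1.29 in the 8 ventral libraries and 0.144 to 0.534 in the 7 dorsal ones, so within the ventral striatum the 2 genes kept nearly one ratio while their levels differed widely between libraries. The ratio of *Pdyn* to *Tac1* was 2.98 to 4.84 ventrally and 0.538 to 1.84 dorsally. The ratio of *Tac1* to *Drd1* moved less, from 0.238 to 0.298 dorsally to 0.259 to 0.408 ventrally.

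Outside the striatum the order was different. In hypothalamus it was *Pdyn* (8.49 RPKM), *Tac1* (3.97), *Isl1* (2.82), *Chrm4* (1.75) and *Drd1* (0.831), with the means of both peptide genes above those of both receptor genes. The range of *Tac1* overlapped those of *Isl1* and *Chrm4*, and the *Chrm4* range also overlapped those of *Isl1* and *Drd1*. In motor cortex *Chrm4* (15.1 RPKM) was above *Pdyn* (5.22), *Drd1* (1.70), *Tac1* (0.570) and *Isl1* (0.0608).

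**Figure D2:**
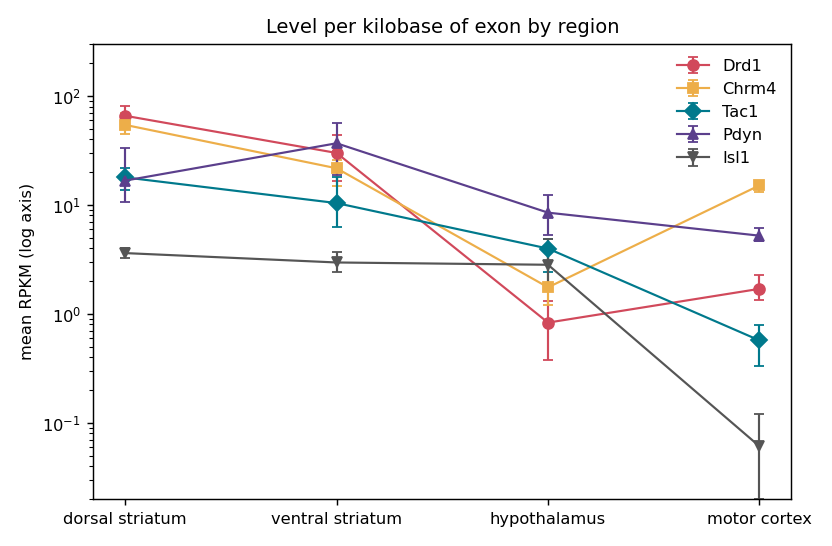
Mean RPKM (log axis) of each gene in the 4 regions, with bars from the lowest to the highest library; Isl1 reached 0 in 1 motor cortex library, where its bar is drawn to the end of the axis. Drd1 led in dorsal striatum (65.8), Pdyn in ventral striatum (36.8) and hypothalamus (8.49), and Chrm4 in motor cortex (15.1).

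The other genes of the striatum give the scale of the dorsal to ventral difference. All 10 genes of both spiny neuron types were higher dorsally, with a median log2 difference of 1.70 (all genes tested: -0.013). They included *Rasd2*, a small G protein (log2 2.37), and *Ppp1r1b*, which encodes DARPP-32 (1.51). All 5 indirect pathway genes tested were higher dorsally too, from *Penk* (log2 0.81) to *Drd2* (1.69), with a median of 0.96. The median of the 5 direct pathway genes was 0.77.

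Of 6 other direct pathway neuron genes, 4 were higher dorsally and 1 lower, with a median of log2 0.43. *Slc35d3*, a transporter-like protein, was higher by log2 0.77 and the transcription factor gene *Ebf1* by 0.59. *Lingo2* went the other way (log2 -0.43), and *Zfp521* (0.22, edgeR adjusted p = 0.12) did not pass. Among markers of other cells, 4 of 5 cortical (median log2 2.43) and 1 of 6 choroid plexus genes were higher dorsally, 3 of 5 astrocyte and 1 of 5 other interneuron genes and 5 of 5 ventral striatum enriched genes were lower, and no oligodendrocyte, microglia or hypothalamic marker passed. Their part in the values of the 5 genes was not tested. In these bulk libraries, a different number of direct pathway neurons and a different amount of RNA of these genes per neuron cannot be told apart.

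**Figure D3:**
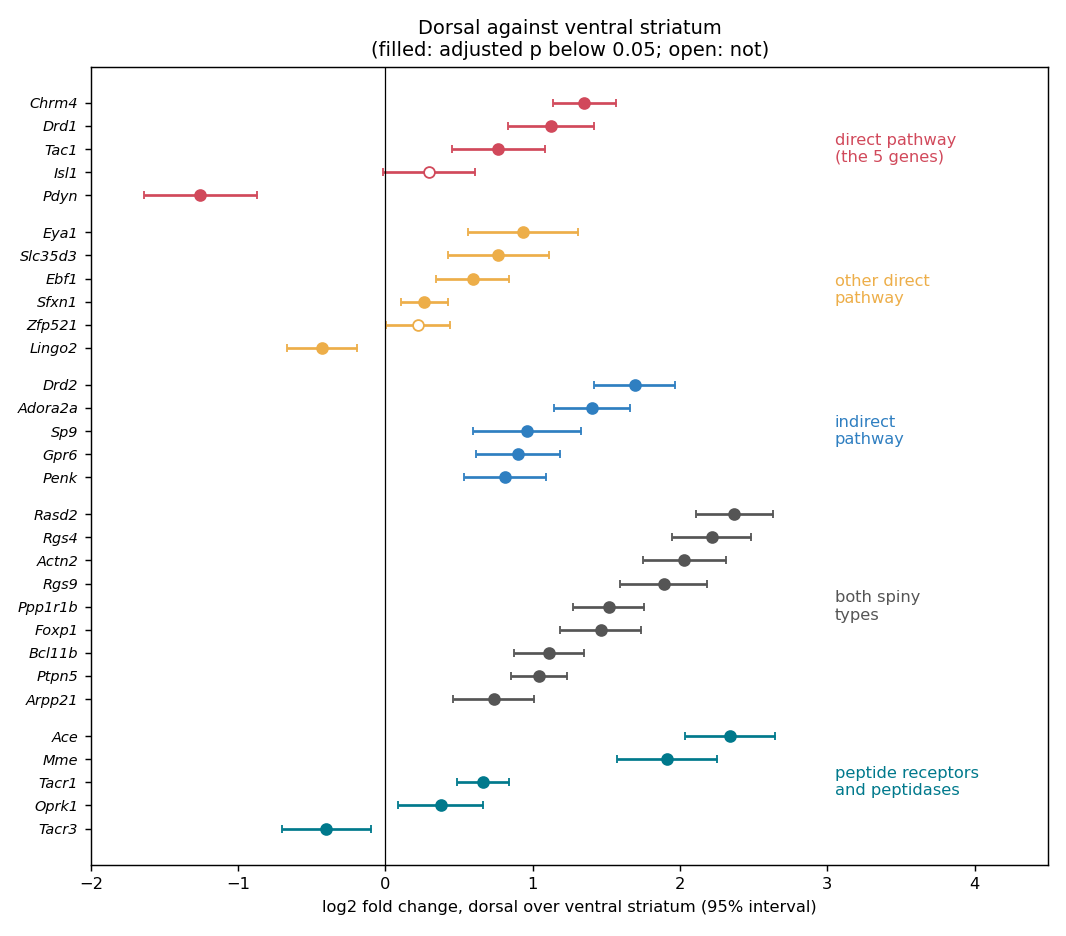
Log2 fold change of dorsal over ventral striatum for single genes of 5 lists, with 95% intervals; filled points passed edgeR's adjusted p of 0.05 and open points did not. Of the 10 genes of both types 9 are drawn, and these and all indirect pathway genes lie to the right of 0, while Pdyn (-1.26), Lingo2 (-0.43) and Tacr3 (-0.40) lie to the left.

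Within single libraries, the mean log2 CPM of the 5 direct pathway genes was compared with that of 5 indirect pathway genes. The difference was -1.93 to -1.50 in the 7 dorsal libraries and -1.35 to -0.87 in the 8 ventral libraries, so the regions did not overlap. The genotypes did overlap: the dorsal values were -1.91 and -1.56 in WT, -1.50, -1.85 and -1.88 in Het and -1.86 and -1.93 in KO. In ventral striatum they were -1.35, -0.87 and -1.19 in WT, -1.21, -1.08 and -0.94 in Het and -0.99 and -1.09 in KO. Of the 5 genes, *Pdyn* alone was lower dorsally (log2 -1.26), against 1.12 for *Drd1*, 1.35 for *Chrm4*, 0.77 for *Tac1* and 0.30 for *Isl1*. The gap between the regions is thus not a shift shared by the 5 genes, and it was not computed without *Pdyn*.

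**Figure D4:**
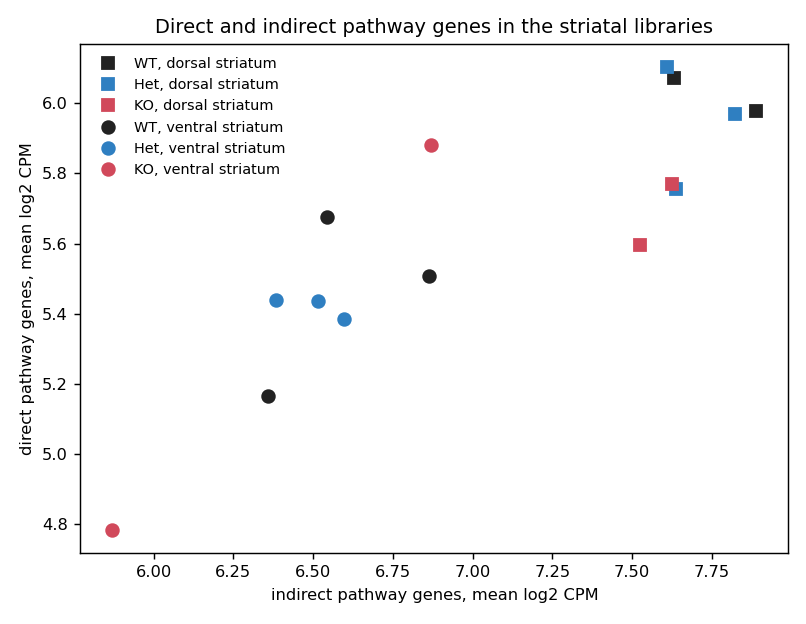
Mean log2 CPM of the 5 direct pathway genes against that of 5 indirect pathway genes, with 1 point per striatal library; squares are dorsal and circles ventral striatum, coloured by genotype. The direct pathway mean was lowest in KO 8 (4.79) and WT 3 (5.17) of the ventral striatum, where the indirect pathway mean was lowest as well.

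Genes that act with the products of the 5 genes were read in the same comparison. In the cascade from the D1 receptor to cAMP, 7 of 10 genes tested were higher dorsally and 1 lower, with a median of log2 0.50. The phosphodiesterase genes *Pde10a* (log2 2.09) and *Pde1b* (1.38), *Adcy5* (1.15), *Gng7* (0.97) and *Gnal* (0.69) were among those higher, *Prkar1b*, a regulatory subunit of protein kinase A, was lower (-0.68), and both catalytic subunit genes, *Prkaca* and *Prkacb*, did not pass. Among 6 genes of peptide precursor processing, 2 were higher dorsally, the prohormone convertase gene *Pcsk2* (log2 1.15) and that of its chaperone *Scg5* (0.28), and the median was 0.03.

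The receptors of the peptides moved with smaller steps. *Tacr1*, the substance P receptor gene, was higher dorsally (53.5 ± 5.30 CPM, SD, n = 7, against 33.5 ± 3.71, n = 8, log2 0.66), as was *Oprk1*, the dynorphin receptor gene (30.3 ± 6.04 against 23.4 ± 6.396, log2 0.38). *Tacr3*, the neurokinin B receptor gene, was lower (log2 -0.40). The peptidase genes *Ace* (log2 2.34) and *Mme* (1.91) were higher dorsally, giving 4 higher and 1 lower of 5.

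Within their own families, *Drd1* and *Chrm4* stood beside genes with other regional patterns. *Drd2* was higher dorsally (log2 1.69) and *Drd3* ventrally (2.68 ± 1.52 against 6.999 ± 1.82 CPM, log2 -1.45), while *Drd5*, which encodes the other D1-like receptor, was at 3.35 ± 0.90 and 3.57 ± 1.05 CPM and did not pass (log2 -0.04). *Chrm1* was higher dorsally (log2 0.41), *Chrm2* (-0.47) and *Chrm5* (-3.55) ventrally, and *Chrm3* did not pass (0.06). Of the cholinergic interneuron markers, which share *Isl1* with the direct pathway, *Chat* (18.0 ± 2.62 against 13.8 ± 3.09 CPM, log2 0.37, edgeR adjusted p = 0.0555) and *Slc5a7* (log2 0.29, edgeR adjusted p = 0.0664) did not pass, and *Lhx8* (-1.34) and *Gbx2* (-1.57) were lower dorsally.

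Across all 28 libraries, the genes whose log2 CPM ran most like that of *Drd1* were *Gng7* (Pearson r = 0.991), *Grm5* (0.989) and *Adora2a* (0.988). For *Tac1* they were *Drd2* (r = 0.983), *Tacr1* (0.975) and *Pard3* (0.973), and for *Pdyn* *Glce* (0.940), *Ppp1r2* (0.938) and *Rfx3* (0.936). For *Chrm4* they were *Phactr1* (r = 0.995), the gene ENSMUSG00000030653, named Gm45837 in the annotation used (0.994), and *Kcnip2* (0.993), and for *Isl1* *Crabp1* (0.964), *Six3* (0.959) and *Klhl13* (0.959). These are descriptions over 28 points that fall into 4 regions, so the regional steps set most of each r.

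With group means removed, the median Pearson r over the 10 pairs of the 5 genes was 0.648 in the 15 striatal libraries. The pair *Drd1* and *Tac1* had the highest (0.924) and *Chrm4* and *Isl1* the lowest (0.146). The median was 0.85 among the 8 ventral libraries (pairs from 0.423 to 0.992) and 0.137 among the 7 dorsal ones (-0.654 to 0.942). As a set, the genes thus ran together in the ventral libraries and not in the dorsal ones. The r of other sets of genes is not given here. The points share library preparation and depth, and KO 7 and KO 8 of the ventral striatum lay at both ends of the range for *Drd1*, *Tac1* and *Pdyn*.

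The second question was whether loss of *Hdc* altered these genes. None of the 5 passed in any of the 12 comparisons between genotypes within a region by edgeR's likelihood ratio test (60 tests, lowest adjusted p = 0.332). At an unadjusted p of 0.05, 3 of the 60 passed (*Pdyn* in KO against Het of dorsal striatum, *Chrm4* in KO against WT and against Het of hypothalamus), where 3.44% to 7.95% of all genes passed in each comparison, and neither edgeR's quasi-likelihood test nor DESeq2 called any. Between KO and WT, 0.387% of all genes changed in dorsal striatum, 0.0801% in ventral striatum, 0.167% in hypothalamus and 0.0334% in motor cortex. The shares were 0.0868%, 0.0534%, 0.0935% and 0.0134% between Het and WT, and 0.461%, 0.0467%, 0.234% and 0.00668% between KO and Het, in the same order of regions.

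In dorsal striatum, *Drd1* was at 293 and 255 CPM in WT, 224, 266 and 227 in Het and 224 and 184 in KO. Both KO libraries lay below both WT libraries, and 1 of the 3 Het libraries fell within the WT range. Groups this small can separate by chance, and the share of all genes that did so was not counted. The KO mean was 0.744 times the WT mean (log2 -0.43, 95% interval -0.97 to 0.12, edgeR adjusted p = 0.752). *Chrm4* was at 101 and 78.2 CPM in WT, 71.1, 80.4 and 71.1 in Het and 80.8 and 64.6 in KO, with overlapping groups (log2 -0.29, 95% interval -0.68 to 0.09).

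*Tac1* was at 73.5 and 71.2 CPM in WT, 60.7, 59.1 and 52.3 in Het and 61.9 and 46.7 in KO. All 5 Het and KO libraries lay below both WT libraries (KO over WT log2 -0.41, 95% interval -1.001 to 0.18, edgeR adjusted p = 0.791). How many of all genes separated in this way was not counted, for *Tac1* or for *Pdyn*. *Pdyn* was at 33.6 and 59.6 CPM in WT, 95.2, 49.3 and 37.9 in Het and 30.4 and 31.8 in KO. The KO libraries were below all others, but WT and Het spread widely (KO over WT log2 -0.59, 95% interval -1.33 to 0.15, edgeR adjusted p = 0.742). *Isl1* was at 12.9 and 15.4 CPM in WT, 15.9, 14.7 and 13.6 in Het and 13.4 and 14.2 in KO, with overlapping groups (KO over WT log2 -0.05, 95% interval -0.63 to 0.53).

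All 5 fold changes of KO over WT were thus below 0 in dorsal striatum, with a median of log2 -0.41, where 50.5% of all genes were below 0 (median -0.003), and none passed. Scaling by library size alone moved the median of all genes to 0.28 and put *Chrm4* (0.00) and *Isl1* (0.23) at or above 0, with *Drd1* at -0.13, *Tac1* at -0.13 and *Pdyn* at -0.33. Genes of both spiny neuron types showed the same sign in 10 of 10 (median log2 -0.27) and indirect pathway genes in 4 of 5 (-0.22), with none called. In the same comparison 5 of 6 choroid plexus markers (median log2 6.74) and 2 of 5 oligodendrocyte markers (*Mobp* 0.76, *Cnp* 0.72) passed, and cortical markers had a median of 1.56. Of uniquely placed reads, 76.0% and 73.2% fell on genes in KO and 82.4% and 80.1% in WT. In Het the shares were 69.7% (Het 4), 80.4% and 80.8%. The part of these markers and of the read shares in the values of the 5 genes was not tested.

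With the same 6 of the 7 libraries that stand apart left out, KO 8 alone was set against WT 1 alone in dorsal striatum, with the spread taken from the other groups. *Drd1* was then at log2 -0.67 and *Chrm4* at -0.64, and both passed. *Tac1* was at -0.65, *Pdyn* at -0.08 and *Isl1* at 0.14, and these did not pass. The share of all genes that passed in this fit of 1 library against 1 is not given here. The calls are therefore not read as a result. KO 8 is itself the seventh library that stands apart, with choroid plexus markers at 5.78 log2 CPM, and both calls rest on it and on WT 1. WT 1 had the lowest TMM factor of all libraries (0.734). Among dorsal libraries it was highest in *Drd1*, in *Chrm4* and in genes of both spiny neuron types (9.68 log2 CPM). Leaving out single libraries called none of the 5 genes in dorsal striatum.

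The 2 dorsal libraries highest in *Pdyn* were also the 2 highest in the ventral striatum enriched genes. Het 4, highest in *Pdyn* (95.2 CPM), was highest in that list (3.27 log2 CPM), and WT 2, second in *Pdyn* (59.6), was second in the list (2.69), against 2.25 to 2.45 in the other 5, whose order in the list was not that of *Pdyn*. KO against Het, *Pdyn* differed by log2 -0.97 (95% interval -1.64 to -0.30, edgeR adjusted p = 0.332), and without Het 4 by -0.49. The part of the dissection border in this difference was not tested.

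In ventral striatum the 2 KO libraries lay at opposite ends of the range for *Drd1*, *Tac1* and *Pdyn*. *Drd1* was at 109.6, 123 and 88.8 CPM in WT, 114, 106 and 109 in Het, and 159 in KO 7 and 60.0 in KO 8. *Pdyn* was at 113, 116 and 88.5 CPM in WT, 106, 107 and 102 in Het, and 163 in KO 7 and 54.4 in KO 8. The KO means were close to the WT means (log2 0.04 for each, 95% intervals -0.47 to 0.54 and -0.61 to 0.69). The intervals rest on a spread estimated over all 12 groups and not on these 2 KO libraries alone. With single libraries left out, the values ran from -0.84 to 0.58 for *Drd1* and from -0.96 to 0.62 for *Pdyn*.

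*Tac1* was at 35.8, 42.3 and 21.6 CPM in WT, 31.3, 36.9 and 32.1 in Het, and 61.0 in KO 7 and 21.5 in KO 8. *Chrm4* was at 35.8, 37.4 and 23.9 CPM in WT, 30.4, 33.0 and 33.8 in Het, and 34.3 and 21.3 in KO. *Isl1* was at 11.5, 14.5 and 13.6 CPM in WT, 10.2, 10.2 and 11.7 in Het, and 12.3 and 9.61 in KO. KO 8 was the lowest ventral library for all 5 genes, and KO over WT was log2 0.32 for *Tac1*, -0.21 for *Chrm4* and -0.27 for *Isl1*, with all 3 intervals covering 0.

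Without KO 7, *Drd1* passed as lower in KO than in WT (log2 -0.84) and than in Het (-0.87), from KO 8 alone. The share of all genes that passed in that fit is not given here, so these calls are not read as a result. Without KO 8, *Drd1* was at log2 0.58 against WT and did not pass. KO 8 and WT 3, low in *Drd1* and *Tac1*, were also the 2 ventral libraries lowest in genes of both spiny neuron types (7.11 and 7.28 log2 CPM). The part of tissue composition in these values was not tested.

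In hypothalamus, *Chrm4* was at 1.94, 1.72 and 2.15 CPM in WT, 2.22, 2.05 and 2.34 in Het, and 2.38 in KO 7 and 5.37 in KO 8, which are 10 to 12 counts in 7 libraries and 25 in KO 8. The KO to WT difference (log2 0.99, 95% interval 0.24 to 1.75, edgeR adjusted p = 0.55) and the KO to Het difference (0.81, edgeR adjusted p = 0.843) rested on KO 8, and were 0.30 and 0.11 without it. KO 8 was the only hypothalamic library high in cortical excitatory neuron markers (5.52 log2 CPM, against 2.07 to 2.43), and *Chrm4* was at 21.8 CPM in motor cortex. The part of cortical tissue was not tested.

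The other 4 genes did not pass between genotypes in hypothalamus. *Tac1* was at 12.2, 13.9 and 8.24 CPM in WT, 15.01, 16.4 and 12.5 in Het and 15.6 and 14.2 in KO, and *Pdyn* at 21.1, 23.8 and 21.3 CPM in WT, 23.5, 35.9 and 15.4 in Het and 24.9 and 30.1 in KO. Both KO libraries lay above all 3 WT libraries for each, by log2 0.38 (95% interval -0.23 to 0.98) and 0.32 (-0.36 to 1.00). Here too, the share of all genes with such separation was not counted. *Isl1* spread most within Het (12.04, 19.2 and 6.82 CPM; KO over WT log2 0.24), and *Drd1*, at log2 0.30, had only 8 to 24 counts per library.

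In motor cortex, with 1 WT library, *Drd1* was at 8.17 CPM in WT, 4.83 and 7.204 in Het and 5.15 and 5.41 in KO, and *Chrm4* at 18.99 in WT, 22.0 and 21.9 in Het and 23.5 and 22.4 in KO. *Pdyn* was at 14.2 CPM in WT, 15.4 and 14.4 in Het and 13.4 and 17.8 in KO, and *Tac1* had 5 to 10 counts per library. No fold change is given for *Isl1*, which had at most 2 counts.

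Between Het and WT in dorsal striatum the log2 fold changes were -0.20 for *Drd1*, -0.33 for *Tac1*, 0.38 for *Pdyn*, -0.27 for *Chrm4* and 0.05 for *Isl1*, and none passed. Het and KO were each set against the same WT libraries. The difference of the KO effect between dorsal and ventral striatum was log2 -0.46 for *Drd1*, -0.73 for *Tac1*, -0.63 for *Pdyn*, -0.08 for *Chrm4* and 0.22 for *Isl1*, with no call (edgeR adjusted p = 1). None of these 10 differences (KO and Het) passed at an unadjusted p of 0.05 or with the other tests, and 0.00668% (KO) and 0.0% (Het) of all genes did after adjustment.

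**Figure D5:**
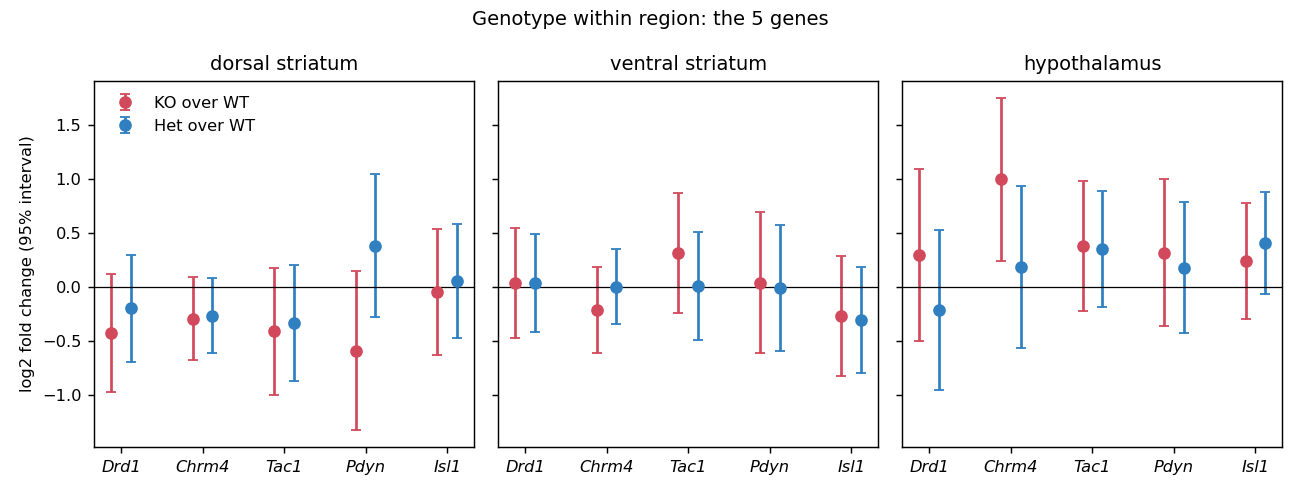
Log2 fold changes of KO and Het over WT for the 5 genes in dorsal striatum, ventral striatum and hypothalamus, with 95% intervals from the edgeR fit. All intervals cover 0 except that of Chrm4 in KO hypothalamus (0.24 to 1.75), which did not pass after adjustment.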

How the data were processed

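RNA-seq was made from 28 dissected brain samples. Per the labels and the study's methods, the authors amplified 5 ng of RNA (Ovation RNA-Seq V2), sequenced single-end 50-base reads, trimmed them (Trimmomatic 0.32, reads under 20 bases dropped), removed ribosomal reads (Bowtie2 2.2.3), aligned the rest to GRCm38 (STAR 2.3.1z8, SAMtools 0.1.19) and deposited raw counts per Ensembl gene (HTSeq 0.6.1p1). Rows that name no gene (5) and a GFP row with 0 counts were left out; 80.3% of uniquely placed reads (median, 69.7% to 84.1%) fell on genes. Symbols and exon lengths came from GENCODE M21, which matched 28758 of 29878 genes.

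A gene was kept if 2 or more libraries exceeded 1 CPM, and the 14979 kept genes were fitted with edgeR 4.0.16 (R 4.3.3): TMM factors (0.734 to 1.22), 12 group means, glmFit and glmLRT, Benjamini-Hochberg adjustment over all genes tested, called at an adjusted p of 0.05. The scripts were tested on simulated data. Log2 CPM used a prior count of 2, and RPKM used merged exon lengths. The alternatives were the quasi-likelihood test, DESeq2 1.42.0, other scalings, no filter, only the groups compared, replicate block and leaving out single libraries. Named genes are the 5 genes, members of the lists, *Hdc* and the 3 genes most like each of the 5. The values of 1 list gene are not reported here. The genes and lists were chosen with earlier results of these data known. The sources do not say whether the libraries of a group came from separate mice, so p-values measure the spread between these samples. That spread was estimated per gene over all 12 groups, so p-values and intervals do not measure the spread within any 1 group. No 2 libraries of a group agreed within sampling noise (chi-square per degree of freedom 1.78 to 13.3), and counting error is the only error that a floor of 3 counts covers.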

Additional observations from a re-analysis of the deposited data

How the results depend on the processing

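The alternatives were followed for 55 log2 fold changes, a chosen part of those of the 5 genes in 20 comparisons. They cover all comparisons between regions except *Isl1* against motor cortex, and only some between genotypes. Of their 929 values, 884 kept their direction and their side of the threshold. Another 11 lost a call, 2 gained one and 32 changed sign. Of these 32, 2 also gained a call (*Drd1* in ventral striatum without KO 7) and 1 lost one (*Isl1*, dorsal striatum against hypothalamus by size alone). Every count of genes called between regions stayed at 4 or 5 under every alternative run. Without KO 7, *Drd1* passed in KO against WT and in KO against Het of the ventral striatum. No other left-out library gave a call in these comparisons. In KO against WT of the dorsal striatum, *Drd1* and *Chrm4* passed with 6 of the 7 libraries that stand apart left out together. KO 8, the only KO library left there, is the other. That setting was chosen after seeing the data and set *Isl1* at 0.14. The share of all genes that passed in these fits is not given here. The median r among the genes was 0.137 in dorsal striatum alone. The cause was not tested. Over all genes, KO against WT gave 58, 12, 25 and 5 calls in dorsal striatum, ventral striatum, hypothalamus and motor cortex, against 12, 4, 4 and 3 by the quasi-likelihood test and 21, 6, 6 and 1 by DESeq2, and 499 in dorsal striatum with library size alone. Het against WT gave 13, 8, 14 and 2 calls, against 3, 2, 2 and 1 (quasi-likelihood) and 4, 2, 1 and 1 (DESeq2), and 56 in dorsal striatum by size alone. KO against Het gave 69, 7, 35 and 1, against 13, 1, 0 and 0 and 19, 2, 7 and 0. Between regions, size alone turned 2185 higher and 2158 lower calls into 1269 and 3789 (dorsal against ventral striatum), 3815 and 4592 into 1939 and 8124 (dorsal striatum against hypothalamus), 3211 and 3288 into 2215 and 4139 (dorsal striatum against motor cortex), 2950 and 3583 into 1610 and 6214 (ventral striatum against hypothalamus) and 3799 and 3425 into 6115 and 2100 (hypothalamus against motor cortex).

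With library size alone, *Isl1* was at -0.006 (dorsal minus hypothalamus), -0.156 (ventral minus hypothalamus) and 0.23 (KO over WT, dorsal), *Chrm4* at 0.003 (KO over WT, dorsal) and 0.19 (KO effect, dorsal minus ventral), and *Drd1* at -0.044 (KO over Het, ventral). Leaving out single libraries, the ranges that crossed 0 were as follows. For KO over WT in ventral striatum they were -0.84 to 0.58 (*Drd1*), -0.62 to 0.88 (*Tac1*), -0.96 to 0.62 (*Pdyn*) and -0.602 to 0.087 (*Chrm4*). For the KO effect, dorsal minus ventral, they were -1 to 0.41 (*Drd1*), -1.29 to 0.21 (*Tac1*), -1.22 to 0.37 (*Pdyn*) and -0.38 to 0.31 (*Chrm4*). The others were *Drd1* -0.87 to 0.54 (KO over Het, ventral) and -0.21 to 0.73 (KO over WT, hypothalamus), *Isl1* -0.165 to 0.093 (KO over WT, dorsal), -0.061 to 0.197 (Het over WT, dorsal) and -0.04 to 0.20 (ventral minus hypothalamus), and *Pdyn* -0.10 to 0.86 (Het over WT, dorsal). The only WT library of motor cortex could not be left out, and *Isl1* was dropped by the filter when only the motor cortex groups were fitted.

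A replicate block on the number in the library names changed no count of calls: 4 of 5 genes passed between dorsal and ventral striatum, as without it, and *Chrm4* in the KO effect, dorsal minus ventral, was at 0.077. Deviations of libraries with the same number had a mean r of 0.007 over 34 pairs. With group means from 1 to 3 libraries, this cannot tell whether a number stands for a mouse. The sources do not explain the numbers, and the main tests did not treat the samples as paired. Depth limits *Drd1* and *Chrm4* in hypothalamus (8 to 25 counts) and *Tac1* and *Isl1* in motor cortex (0 to 10).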
